A study of Rattus norvegicus with 4 samples.

Results

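The carnitine shuttle carries long-chain fatty acids into mitochondria, and its 4 genes Cpt1a, Cpt1b, Cpt2 and Slc25a20 were followed here in neonatal rat cardiomyocytes given n-3 polyunsaturated fatty acids. The genes were picked out by their symbols in the platform annotation. These genes and the lists below were chosen with earlier results of these data known. Their counts beside those of all genes are therefore no test. Each has 1 probe, so they account for 4 of the 9653 named genes and 4 of the 20500 measured probes. All 4 probes had a value on every array.

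Ventricular cells of newborn Wistar rats were kept in primary culture in HAM F10 medium with fetal calf serum and horse serum at 10% each. Cultures received 60 µM eicosapentaenoic acid (EPA), 60 µM docosahexaenoic acid (DHA) or neither (control), with medium renewed every 48 h until confluence. EPA and DHA are the main long-chain n-3 fatty acids of fish oil. RNA of each supplemented culture was hybridised directly against control RNA on 2 two-colour Agilent arrays with exchanged dyes: on array 1 the fatty acid culture was in Cy5 and on array 2 in Cy3. Such cultures also hold non-muscle cells of the ventricle, fibroblasts foremost, and in this bulk RNA a change in the number of cells of a type and a change in RNA per cell cannot be told apart. The table gives ratios and no levels, so the labelled cell type could not be checked against the level of its markers, and no gene's level can be set against another's.

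Carnitine palmitoyltransferase 1, on the outer mitochondrial membrane, joins an activated long-chain fatty acid to carnitine and is held back by malonyl-CoA. The carnitine-acylcarnitine translocase then moves the acylcarnitine across the inner membrane in exchange for free carnitine, and carnitine palmitoyltransferase 2 turns it back into acyl-CoA for beta-oxidation. Cpt1a encodes the liver form of the outer enzyme, which the newborn heart also uses, and Cpt1b the muscle form, the main one of the adult heart. Fatty acids activate the nuclear receptors of the PPAR family, and the genes of this shuttle are known among PPAR targets.

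Values are log2 ratios with each array's median set to 0, given as mean ± half-difference over a dye swap. The labels do not tell whether its 2 arrays carry separate RNA extracts, so they count as 1 RNA sample per fatty acid, without a replicate check. The size rule called a gene when each array of its swap differed from 0 by at least 1.5-fold (0.58 on the log2 scale) the same way. The ratios are read as fatty acid over control in base 2. Both readings are likely and not stated: the 4 sample titles name the supplemented cells, and genes of fatty acid oxidation helped to choose the reading. The side of 0 on which the members lie is therefore no independent evidence, and every direction given would turn if control was the numerator. Nor is the agreement of a swap's arrays in the members independent evidence, and their calls and ranks rest on it. The arrays of a swap were nearly uncorrelated across probes, with Pearson's r of -0.11 for EPA and -0.03 for DHA. On DHA array 1, almost every low value, 1082 of 1090 below -1, came from 1 edge of the slide, grid columns 1 to 66 as inferred from the feature numbers. The 4 member probes sit in columns 146 (Cpt1b), 140 (Cpt1a), 203 (Cpt2) and 80 (Slc25a20), outside that region. Genes named below with a probe inside it are marked.

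The outer-membrane step differed most. Cpt1b stood at 0.93 and 0.88 on EPA arrays 1 and 2 and at 1.296 and 0.98 on DHA arrays 1 and 2. All 4 values lay past 1.5-fold, in both dye orientations. The mean was 0.91 ± 0.02 with EPA (1.87-fold) and 1.14 ± 0.16 with DHA (2.20-fold). Of all 9653 genes ranked by the swap mean, Cpt1b was number 2 with EPA and number 1 with DHA.

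Cpt1a stood at 0.36 and 1.08 on EPA arrays 1 and 2 and at 0.41 and 0.90 on DHA arrays 1 and 2. All 4 values lay above 0, and array 2 alone passed 1.5-fold in each swap. The mean was 0.72 ± 0.36 with EPA (1.65-fold, rank 11 of 9653) and 0.66 ± 0.25 with DHA (1.57-fold, rank 19). Array 1 gave a 1.28-fold ratio with EPA and a 1.33-fold ratio with DHA, whereas array 2 gave 2.12-fold with EPA and 1.87-fold with DHA. With both fatty acids the ratio was thus larger where the supplemented culture carried Cy3. For Cpt1b the dye orientation moved the ratio less and the other way.

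The steps that follow in the pathway lay near 0. Cpt2 stood at 0.16 and 0.10 on EPA arrays 1 and 2 and at -0.01 and 0.09 on DHA arrays 1 and 2. Its mean was 0.13 ± 0.03 with EPA (1.09-fold) and 0.04 ± 0.05 with DHA (1.03-fold), and the DHA mean was smaller than its half-difference. Slc25a20, the translocase, stood at 0.0032 and 0.06 on EPA arrays 1 and 2 and at -0.02 and 0.16 on DHA arrays 1 and 2. Its mean of 0.03 ± 0.03 with EPA (1.02-fold) was about as large as its half-difference, and its mean of 0.07 ± 0.09 with DHA (1.05-fold) was smaller. Neither gene lay on one side of 0 on all 4 arrays. In rank by the swap mean Cpt2 was number 1472 with EPA and 3415 with DHA, and Slc25a20 number 3821 with EPA and 2074 with DHA.

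**Figure D1:**
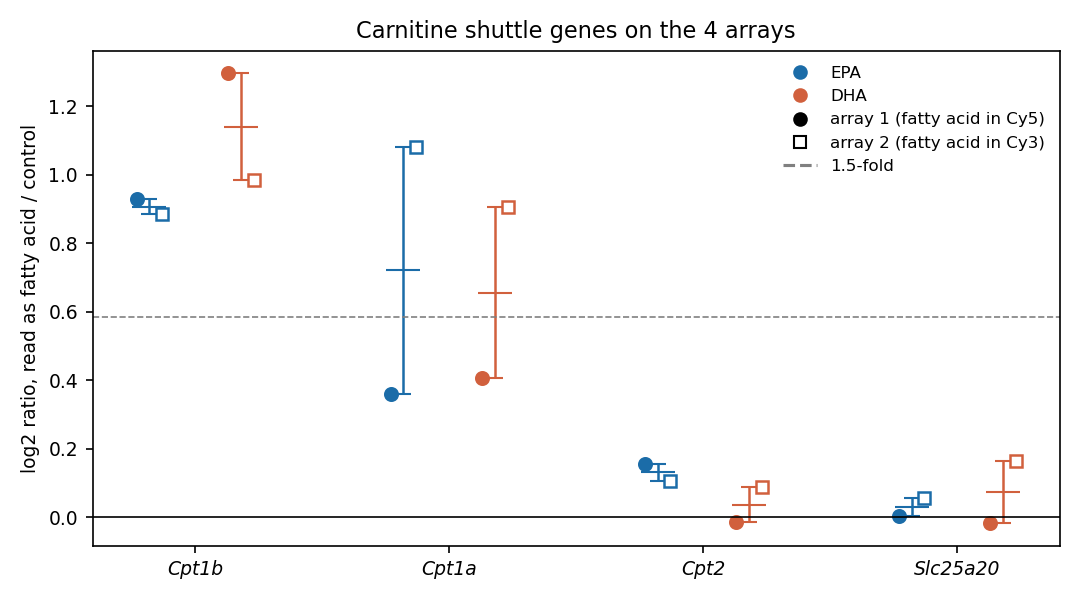
Log2 ratio, read as fatty acid over control, of the 4 carnitine shuttle genes on each array. Filled circles are array 1 and open squares array 2 of the EPA and DHA swaps, bars show the mean ± half-difference, and the dashed line marks 1.5-fold; the 4 points of Cpt1b, at 0.88 to 1.296, lie above it, those of Cpt1a on both sides of it and those of Cpt2 and Slc25a20 near 0.

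The 250 bases before the RefSeq start of the members with an entry in the GRCr8 promoter table are shown because Cpt1a lay above control and Cpt2 and Slc25a20 near it. Cpt1b was not matched, and a link between these sequences and the ratios was not tested. Capitals mark each match to the GC box GGGCGG on either strand.
Cpt1a, chr1:209995910-209996159, plus strand: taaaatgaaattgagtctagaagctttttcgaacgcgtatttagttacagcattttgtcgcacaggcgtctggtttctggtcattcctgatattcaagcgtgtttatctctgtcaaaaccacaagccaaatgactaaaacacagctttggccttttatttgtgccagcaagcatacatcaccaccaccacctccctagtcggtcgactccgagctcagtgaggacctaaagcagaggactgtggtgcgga
Cpt2, chr5:127910819-127911068, minus strand: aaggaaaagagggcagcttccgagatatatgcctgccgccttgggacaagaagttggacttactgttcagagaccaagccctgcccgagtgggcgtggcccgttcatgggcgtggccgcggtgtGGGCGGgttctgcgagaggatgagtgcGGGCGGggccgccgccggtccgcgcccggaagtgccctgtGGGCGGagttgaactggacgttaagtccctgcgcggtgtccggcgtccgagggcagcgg
Slc25a20, chr8:118243323-118243572, plus strand: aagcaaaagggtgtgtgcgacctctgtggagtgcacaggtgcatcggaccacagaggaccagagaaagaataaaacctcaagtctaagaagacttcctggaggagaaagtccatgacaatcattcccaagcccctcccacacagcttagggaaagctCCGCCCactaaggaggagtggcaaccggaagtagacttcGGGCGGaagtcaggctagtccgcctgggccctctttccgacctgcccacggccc
Both strands were searched for GGGCGG, for CCAAT, for the nuclear receptor half-site AGGTCA and for its direct repeat with 1 base between, AGGTCANAGGTCA, which holds the half-site within it. The GC box had 0 matches before Cpt1a, 3 before Cpt2 and 2 before Slc25a20, and is found in 30.5% of 33469 promoter windows of this length. The half-site (14.1% of windows), the direct repeat (0.0508%) and CCAAT (34.0%) had no match in the 3 windows, which says only that these letters are not in them. The G and C content was 45.6% before Cpt1a, 66.8% before Cpt2 and 56.4% before Slc25a20, with a median of 51.2% over all windows.

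By the size rule 1 of the 4 members, Cpt1b, was higher with EPA and 0 were lower. The background was 3 genes higher among 9653 (0.0311%) and 0 lower (0%). With DHA 1 of 4, again Cpt1b, was higher and 0 lower, where 4 genes of 9653 (0.0414%) were higher and 4 (0.0414%) lower. At least 1.5-fold in opposite directions on the arrays of a swap, thus following the dye, were 27 genes with EPA (0.280%) and 5 with DHA (0.0518%), and no member was among them. Read as Cy5 over Cy3, which turns the sign of arrays 2, the calls of Cpt1b ended, with swap means of 0.02 with EPA and 0.16 with DHA. At 1.3-fold (0.38 on the log2 scale) Cpt1b alone of the members was higher with EPA, against 17 of all genes (0.176%) higher and 8 (0.0829%) lower, and Cpt1b and Cpt1a were higher with DHA, against 14 of all genes (0.145%) higher and 23 (0.238%) lower. Cpt1a missed that size with EPA on array 1. The median over the 4 members was 0.43 with EPA and 0.36 with DHA, beside -0.0012 with EPA and 0.00021 with DHA over all genes. It falls between a pair of genes far from 0 and a pair near it.

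**Figure D2:**
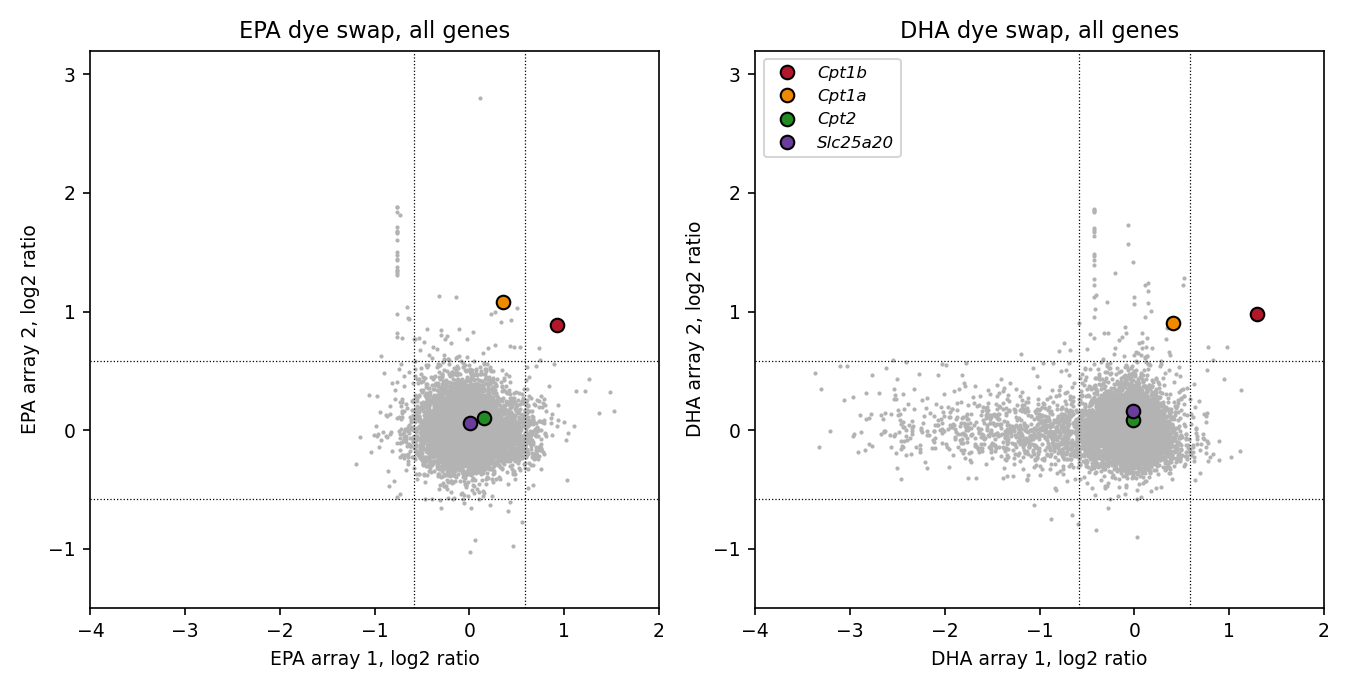
Log2 ratio on array 2 (vertical) against array 1 (horizontal) of the EPA swap (left) and the DHA swap (right), with 1 grey point per gene and the carnitine shuttle genes in colour. Dotted lines mark 1.5-fold; Cpt1b is past both lines at the upper right in each panel, Cpt1a is past the line of array 2 alone, and the long tail to the left in the DHA panel is that of DHA array 1.

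Whether the members differed from control with both fatty acids was tested by limma on the EPA and DHA swap means of every probe. No member and 0 of 20500 probes (0%) passed an adjusted p of 0.05, and 909 probes (4.43%) had an unadjusted p under 0.05. Over both fatty acids the log2 ratio of Cpt1b was 1.02 ± 0.09 (SE; unadjusted p = 0.00091, adjusted p = 0.891 by limma) and that of Cpt1a 0.69 ± 0.06 (unadjusted p = 0.0010, adjusted p = 0.891 by limma). Cpt2 was at 0.08 ± 0.06 and Slc25a20 at 0.05 ± 0.06, with adjusted p of 0.897 and 0.916 by limma. The spread in this test comes from EPA against DHA alone. It holds nothing of the disagreement within a swap, nor of the control's own spread if both were set against one control RNA. The call depended on the probes tested and on how they were centred. With the centring on all probes, genes outside the first 66 columns had median swap means of -0.017 with EPA and 0.028 with DHA. With the 14222 probes outside the first 66 columns alone, 274 passed (1.93%), among them Cpt1b and Cpt1a at adjusted p of 7.65e-06 and 9.60e-05 by limma. With the arrays also centred on those probes, an alternative added after seeing the data, 2 passed (0.0141%), and Cpt1b and Cpt1a were at adjusted p of 0.0604 and 0.0837 by limma.

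EPA and DHA were set side by side within the same dye orientation. The log2 difference of EPA minus DHA in Cpt1b was -0.37 on arrays 1 and -0.10 on arrays 2, with a mean of -0.23. Both had the EPA ratio below the DHA ratio. In Cpt1a the difference was -0.05 on arrays 1 and 0.18 on arrays 2, so the order turned with the dye. In Cpt2 it was 0.17 and 0.02, and in Slc25a20 0.02 and -0.11. None of the 4 members differed by 1.5-fold in the same direction in both orientations, as 6 of 9653 genes (0.0622%) did. With 1 RNA sample per fatty acid these differences have no test over samples. A limma fit over the 4 arrays with a dye term, which takes in the spread between arrays only, gave Cpt1b -0.23 ± 0.12 (SE, adjusted p = 0.771) and Cpt1a 0.07 ± 0.12 (SE, adjusted p = 0.89), and 0 of 20500 probes passed (0%), 359 with an unadjusted p under 0.05. In the same fit no member passed for EPA alone or DHA alone, and neither did any of 20500 probes (0% each), with 1168 and 885 at an unadjusted p under 0.05. Cpt1b was at adjusted p of 0.752 with EPA and 0.742 with DHA by limma.

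Genes whose 4 ratios were most like those of a member were ranked by Euclidean distance over the 4 arrays. Nearest to Cpt1a was Ech1, an auxiliary enzyme of beta-oxidation, at a distance of 0.42. Plin2, a coat protein of lipid droplets, followed at 0.47, then Hadha, a subunit of the mitochondrial trifunctional protein, at 0.63, Acadl, the long-chain acyl-CoA dehydrogenase, at 0.64 (a probe in the first 66 columns) and Ucp3, a mitochondrial carrier, at 0.68. Each of these 5 had higher ratios on arrays 2 than on arrays 1 of both swaps, as Cpt1a had. Their choice by distance to Cpt1a favours such a likeness. Nearest to Cpt1b was Hilpda, a lipid droplet protein that inhibits triglyceride breakdown, at 0.68. It was followed by Nrep at 0.85, Ech1 at 0.94, Star, which brings cholesterol into mitochondria, at 0.94, and Dhrs3, a retinal reductase, at 1.01. Cpt1a and Cpt1b lay 1.08 apart, and Cpt2 and Slc25a20 0.18 apart. Within a distance of 0.5 there were 0 genes around Cpt1b and 2 around Cpt1a, but 6677 around Cpt2 and 6883 around Slc25a20, so the ratios of most genes lay that close to theirs. The nearest to Cpt2 were Sf1, Sftpb, Grb10, Crebbp (a probe in the first 66 columns) and Pcbp2. The nearest to Slc25a20 were Tpra1, Clcn2, Mmp11, Ssrp1 and Cbx2.

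Genes beside the members on the chromosome, by order in the GRCr8 gene table, were measured in 3 cases. Chkb, a choline kinase and the coding gene next to Cpt1b, stood at 0.14 ± 0.19 with EPA and 0.12 ± 0.14 with DHA. It lay below 0 on both arrays 1 and has a probe in the first 66 columns. Mrpl21, a mitochondrial ribosomal protein gene beside Cpt1a and also with a probe there, stood at -0.06 ± 0.11 with EPA and -0.27 ± 0.14 with DHA. Prkar2a, a regulatory subunit of protein kinase A beside Slc25a20, stood at 0.06 ± 0.02 with EPA, near 0 as Slc25a20 was, and at -0.37 ± 0.40 with DHA, from -0.77 on array 1 and 0.03 on array 2, with its probe in the first 66 columns. In that table Slc25a20 overlaps another coding gene, LOC120094262, which had no named probe.

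The supply of carnitine and the other carnitine acyltransferases lay near 0. Of 7 genes measured from 10 listed, none was called in either direction with EPA or DHA, at 1.5-fold or at 1.3-fold. At 1.5-fold 0.0311% of all genes were higher and 0% lower with EPA, and 0.0414% each way with DHA. At 1.3-fold the shares were 0.176% higher and 0.0829% lower with EPA, and 0.145% and 0.238% with DHA. Calls were thus rare among all genes, and a count of 0 here or in the lists below says little. The median was 0.011 with EPA and 0.0090 with DHA. Crat, which makes short-chain acylcarnitines, stood at 0.24 ± 0.21 with EPA and 0.08 ± 0.07 with DHA. Slc22a5, the carnitine transporter of the plasma membrane, stood at 0.25 ± 0.05 with EPA and -0.04 ± 0.28 with DHA. Bbox1, the last enzyme of carnitine synthesis, stood at -0.18 ± 0.13 with EPA and -0.02 ± 0.08 with DHA. Both have their probe in the first 66 columns.

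Genes that set malonyl-CoA, the inhibitor of the outer enzyme, and the AMP-activated kinase that acts on it showed no call either, at 1.5-fold or 1.3-fold. Of 13 listed, 12 were measured, with medians of 0.035 with EPA and 0.052 with DHA. Mlycd, which breaks malonyl-CoA down, stood at 0.11 and 0.24 on EPA arrays 1 and 2 and at 0.13 and 0.22 on DHA arrays 1 and 2. It thus lay above 0 on all 4 arrays, with means of 0.18 ± 0.06 with EPA and 0.18 ± 0.04 with DHA that stayed below 1.3-fold. Prkaa2, a catalytic subunit of the kinase, stood at 0.34 ± 0.21 with EPA and -0.10 ± 0.19 with DHA, and Prkag1, a regulatory subunit, at -0.01 ± 0.13 with EPA and -0.04 ± 0.14 with DHA.

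Upstream of the shuttle, 14 of 15 genes of fatty acid uptake and activation were measured and none was called with either fatty acid at either size. Their medians were 0.061 with EPA and 0.033 with DHA. Dbi, the acyl-CoA binding protein, stood at 0.26 ± 0.09 with EPA and 0.19 ± 0.16 with DHA. Got2, an aminotransferase also described as a fatty acid binding protein of the plasma membrane, stood at 0.19 ± 0.05 with EPA and 0.21 ± 0.05 with DHA. Acsl3, an acyl-CoA synthetase with its probe in the first 66 columns, stood at -0.15 ± 0.19 with EPA and -0.81 ± 0.70 with DHA.

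Downstream, the median of 18 measured genes of mitochondrial beta-oxidation from 20 listed was 0.12 with EPA and 0.31 with DHA. None was called at 1.5-fold. At 1.3-fold 1 was higher with EPA (Ech1) and 3 with DHA, and 0 were lower; the 3 were Ech1, Etfb, a subunit of the electron transfer flavoprotein, and Eci2, an enoyl-CoA isomerase, the last 2 named after their values were seen. Ech1 stood at 0.51 and 1.03 on EPA arrays 1 and 2 and at 0.52 and 1.28 on DHA arrays 1 and 2. Like Cpt1a it passed 1.5-fold on arrays 2 alone. Decr1, the dienoyl-CoA reductase needed for polyunsaturated chains, stood at 0.31 ± 0.12 with EPA and 0.55 ± 0.22 with DHA. Echs1, the short-chain enoyl-CoA hydratase, stood at -0.13 ± 0.05 with EPA and -0.58 ± 0.51 with DHA, with its probe in the first 66 columns. On every array 5 of the 18 genes had a ratio above 0, as had 2 of the 4 shuttle genes, beside 676 of 9653 genes (7.00%). Read as Cy5 over Cy3 the counts were 0 of 18 and 0 of 4, beside 1181 of 9653 genes (12.2%). Because genes of fatty acid oxidation helped to choose the reading, these counts are no independent evidence for it or for a direction.

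Of the PPAR regulators 9 of 12 were measured and none was called with either fatty acid at either size, with medians of 0.016 with EPA and 0.023 with DHA. Nrip1, a corepressor of nuclear receptors with a probe in the first 66 columns, stood at 0.11 ± 0.03 with EPA and 0.21 ± 0.00046 with DHA. Of the receptors themselves, Pparg stood at 0.07 ± 0.0031 with EPA and 0.18 ± 0.04 with DHA, and Ppard at -0.06 ± 0.05 with EPA and -0.07 ± 0.03 with DHA. Among other PPAR target genes 10 of 16 were measured. Of these 1, Hilpda, was called higher, at 0.67 ± 0.08 with EPA and 0.74 ± 0.04 with DHA, and 0 were lower. The list's medians were 0.072 with EPA and 0.11 with DHA. Plin2 stood at 0.49 ± 0.22 with EPA and 0.50 ± 0.13 with DHA. Txnip, an arrestin-like protein with a probe in the first 66 columns, stood at 0.14 ± 0.06 with EPA and -0.27 ± 0.17 with DHA. No probe of these 6 pathway lists passed the limma test over both fatty acids.

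**Figure D3:**
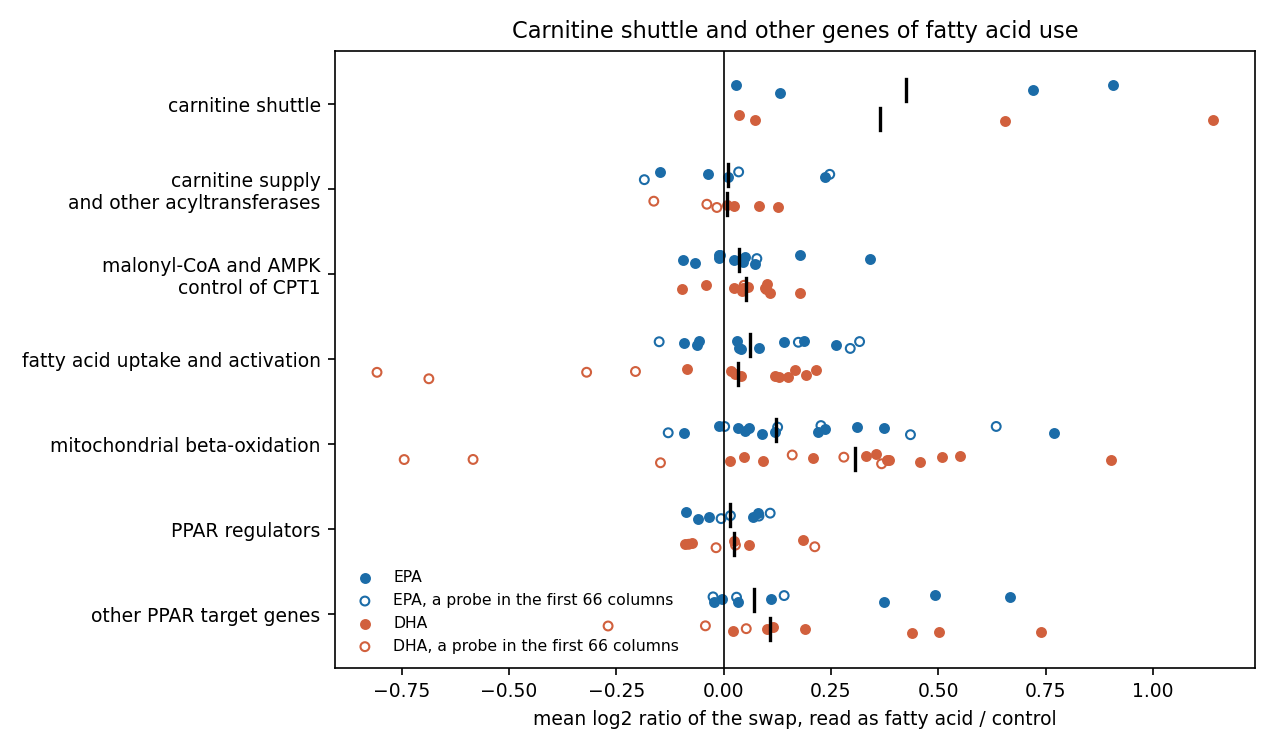
Mean log2 ratio of the dye swap, read as fatty acid over control, for each measured gene of the carnitine shuttle and of 6 other lists of fatty acid use, with EPA above DHA in each list and black bars at the medians. Open circles are genes with a probe in the first 66 grid columns; the shuttle's EPA values run from 0.03 to 0.91, and the lowest DHA values of uptake and beta-oxidation are open circles.

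Markers of the cell types such cultures hold were taken from 5 lists, and none of their genes was called at 1.5-fold with EPA or DHA. At 1.3-fold 1 was called, the macrophage lysozyme Lyz2, lower with DHA, at -1.13 on array 1 and -0.42 on array 2. With EPA Lyz2 stood at -1.19 on array 1 and -0.29 on array 2, and its mean was the lowest of the 9653 genes. With EPA the medians were 0.047 for 13 cardiomyocyte genes, 0.021 for 9 fibroblast genes, 0.11 for 4 smooth muscle genes, 0.034 for 7 endothelial genes and -0.10 for 10 macrophage genes. With DHA the same lists had medians of -0.048, 0.0012, -0.037, 0.055 and 0.038 in that order. Of the 13 cardiomyocyte genes, 4 have a probe at the slide edge described above. Without them the cardiomyocyte median was -0.088 with EPA and 0.012 with DHA, so its sign turned with both. The macrophage median without such genes was -0.047 with EPA and 0.062 with DHA. All lists but that of cardiomyocytes kept the sign of their medians. The values within lists ranged more widely. Cardiomyocyte genes ran from -0.39 to 0.23 with EPA and from -0.72 to 0.15 with DHA. The lowest with DHA, Actc1 at -0.72 and Atp2a2 at -0.71, have their probe at that slide edge. Macrophage genes ran from -0.74 to 0.17 with EPA and from -0.77 to 0.08 with DHA, the lowest being Lyz2. Fibroblast genes ran from -0.36 to 0.56 with EPA and from -0.49 to 0.64 with DHA. The highest was Fn1, whose arrays had opposite signs, -0.77 and 1.88 with EPA and -0.43 and 1.70 with DHA. On the EPA arrays 2 fibroblast genes and 1 smooth muscle gene followed the dye past 1.5-fold. On the DHA arrays 2 fibroblast genes and 1 smooth muscle gene did so past 1.3-fold. In both cases they were Col1a2, Fn1 and Tagln. Their values on array 1 were almost the same, -0.77 with EPA and -0.43 with DHA. Fn1 and Tagln also shared 1.88 on EPA array 2. The reason for these ties was not tested, so the 3 genes may not be separate measurements of a ratio. The part of any shift in cell types in the ratios of Cpt1b and Cpt1a was not tested.

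**Figure D4:**
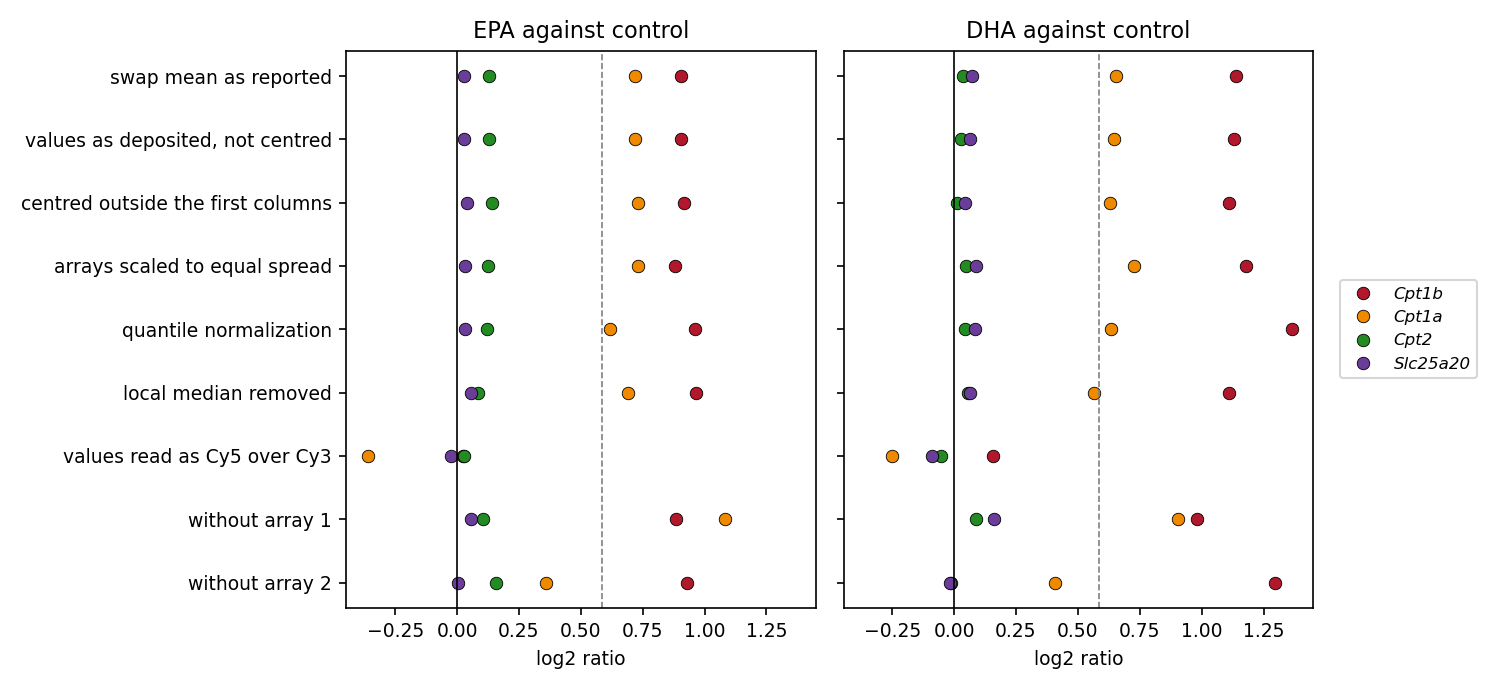
Log2 ratio of the 4 carnitine shuttle genes with EPA (left) and DHA (right) under each processing setting, listed down the page, with the dashed line at 1.5-fold. Cpt1b stays right of the line except where values are read as Cy5 over Cy3, at 0.02 with EPA and 0.16 with DHA, and Cpt1a moves between the single arrays, 1.08 without EPA array 1 and 0.36 without EPA array 2.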

How the data were processed

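Per the labels, cRNA was labelled with Cy3 or Cy5 and the authors took expression ratios. They deposited 4 columns of 22575 values, 2075 of them empty, which are read here as log2 ratios. The base, the direction, the scanner software and any correction for background or dye are not stated. The deposited medians lay between -0.0097 and 0.0024.

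Gene symbols come from the platform annotation and were brought up to date through gene IDs (GRCr8 table): 12750 had 1 symbol, 5 several and 7745 were unlisted. Arrays were centred on the median and probes of a gene averaged. The swap means of all probes were tested with limma 3.58.1 in R 4.3.3 (lmFit, eBayes, Benjamini-Hochberg). A check on shuffled values with known shifts added required only that the median estimate came near the shift. It does not show how often the test calls a probe rightly or wrongly. Precision is limited by the number of arrays. The replicate number marks the dye orientation, per the labels; r across probes was 0.06 between arrays 1 and 0.65 between arrays 2. Members and lists were chosen with earlier results of these data known. Named are the members, list genes past the size rule, each pathway list's 2 highest genes and its lowest, and the 5 genes most like each member. Alternatives covered centring, scaling, direction, base, threshold, features and arrays left out.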

Additional observations from a re-analysis of the deposited data

How the results depend on the processing

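Of the 4 members, 1 (Cpt1b) was called with EPA and 1 with DHA. Read as Cy5 over Cy3, 0 were called with EPA and 0 with DHA, and over both fatty acids Cpt1a turned to -0.30, Cpt2 to -0.013 and Slc25a20 to -0.058. That reading turns the sign of arrays 2. With base 10 in place of base 2, the count was 2 with EPA and 2 with DHA (Cpt1b and Cpt1a), and Cpt1b would be 8.07-fold and 13.8-fold. At 1.3-fold DHA gave 2. Leaving out 1 array gave 1 to 2 members with EPA and 1 to 2 with DHA, Cpt1a joining where array 1 was left out. Over both fatty acids 0 members passed, or 2 with the probes outside the first 66 columns alone; limma's prior degrees of freedom were then 12.2 against 2.24, and 3.90 when centred there. In the other alternatives of these 4 comparisons the members' counts did not change.

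Under the 5 centrings and scalings Cpt1b ranged from 0.88 to 0.96 with EPA and from 1.11 to 1.36 with DHA, and Cpt1a from 0.62 to 0.73 and from 0.57 to 0.73. EPA minus DHA in Cpt1b ranged from -0.40 to -0.15. The adjusted p over both fatty acids ranged over all alternatives from 7.65e-06 to 0.993 for Cpt1b and from 9.60e-05 to 0.993 for Cpt1a. Over the 4 arrays with the dye orientation as a replicate block both were at adjusted p of 0.503 by limma, 0 members passed and the block changed no call. Of all genes 3 were called with EPA, but 5 with equal spread, 23 with quantile normalization, 25 at 1.3-fold, 27 as Cy5 over Cy3, 477 in base 10 and 83 to 307 on single arrays. With DHA 8 were called, but 15 with quantile normalization, 37 at 1.3-fold, 5 as Cy5 over Cy3, 479 in base 10 and 83 to 968 on single arrays. By probe the counts were 7 and 13. No intensities were used here, so signal over background is unknown for the members.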
